A study of Mus musculus with 5 samples.

Results

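Broad promoter domains are stretches of acetylated chromatin that reach over several kilobases at or near the start of a gene. In H3K27ac CUT&Tag of regulatory T (Treg) cells, a peak was counted as one when it was at least 5 kb wide and overlapped a window of 3 kb on either side of an annotated start (TSS) of a GENCODE M21 protein-coding transcript. The domains were thus selected on a measured quantity, their width, which was called from the same libraries that are compared here. Peaks had been merged before counting, and how far merging set the width of a domain cannot be read from the table, so a width is that of the merged interval. Of 124158 peaks, 626 met the rule. They were 2.82% of the 22161 promoter peaks and 49.4% of the 1267 peaks of 5 kb or more. A start lay inside 561 of them (89.6%), while 65 held none and only came within 3 kb of one.

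The study asked how loss of Setd2, the methyltransferase that places H3K36me3 over transcribed genes, alters Treg cells of the gut. Littermates on the C57BL/6 background, aged 2 weeks, gave the cells, which were gated as CD3+CD4+Foxp3-YFP+ from large intestine. The mark was profiled by CUT&Tag, in which an antibody guides a transposase to the mark. Ctrl mice were Foxp3Cre-YFP Setd2 f/+, with 1 floxed and 1 normal Setd2 allele, and KO mice were Foxp3Cre-YFP Setd2 f/f, with both alleles floxed. Both genotypes carried the Cre-YFP under Foxp3, so Cre was made in cells that express Foxp3, and the Ctrl cells had themselves lost 1 allele where Cre acted. Each library came from 60000 cells pooled from 3 to 5 mice of both sexes, with 2 libraries per genotype.

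H3K27ac is laid down by the acetyltransferases p300 and CBP and marks active promoters and enhancers. At most active promoters it forms a short block next to the start site, while a smaller set of genes carries it far into the gene body. Such long stretches are known from many cell types at genes that are highly transcribed or that define the cell.

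Counts in peaks came to 2395002 (Ctrl 1), 3630447 (Ctrl 2), 3007444 (KO 1) and 4712473 (KO 2), and a domain held a median of 245, 414, 326 and 620 counts in the same order. The lowest count of any domain in any library was 72, so all 626 passed the minimum of 10 counts in at least 2 libraries. Levels are given as CPM, counts in a domain scaled to the TMM-adjusted library size, and as CPM per kb where domains of different width are compared. Markers of the sorted population were present, since each of the 32 Treg identity genes had a promoter peak. Their promoter peaks summed to 3807 to 5059 CPM per library. Of the markers of other cells, 8 of 12 B cell, 6 of 11 myeloid, 4 of 12 epithelial, 3 of 12 stromal and 7 of 12 CD8 or NK cell genes had a promoter peak. Their sums stayed between 14 and 109 CPM per list, and Ms4a1, Pax5, Csf1r, Hnf4a, Col1a1 and Cd8a had none. Setd2 had a promoter peak of 2010 bp and therefore no broad domain. It measured 26.2 and 25 CPM in Ctrl and 27.2 and 33.3 CPM in KO, and acetylation there does not report on the deleted exons.

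The starts of the genes with broad domains were of mixed kinds. RefSeq promoter sequences of GRCm38.p6 (the mm10 assembly) were matched by gene symbol, and 588 starts of 460 genes lay inside 425 of the domains. To show the range, the 250 bases before the start are printed for 6 of them, 5′ to 3′ on the strand of the gene, with each CpG dinucleotide in capitals. The first 3 are the widest domain (Fam53b) and the domains with the highest level per kb (Junb and Hjurp), and all have a start dense in CpG. They lie at chr7:132813197-132813446 on the minus strand with 26 CpG, at chr8:84978749-84978998 on the minus strand with 20, and at chr1:88277580-88277829 on the minus strand with 16.
Fam53b: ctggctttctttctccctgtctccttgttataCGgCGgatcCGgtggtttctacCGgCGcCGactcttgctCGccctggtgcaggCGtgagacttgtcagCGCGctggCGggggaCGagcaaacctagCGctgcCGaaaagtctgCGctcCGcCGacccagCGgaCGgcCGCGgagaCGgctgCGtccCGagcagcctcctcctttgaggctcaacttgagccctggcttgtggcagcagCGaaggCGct
Junb: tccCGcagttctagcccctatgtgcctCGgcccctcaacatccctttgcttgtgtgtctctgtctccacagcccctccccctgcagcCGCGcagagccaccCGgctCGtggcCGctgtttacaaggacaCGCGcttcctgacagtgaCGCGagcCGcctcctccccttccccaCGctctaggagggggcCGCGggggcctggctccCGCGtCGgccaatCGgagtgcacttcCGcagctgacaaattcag
Hjurp: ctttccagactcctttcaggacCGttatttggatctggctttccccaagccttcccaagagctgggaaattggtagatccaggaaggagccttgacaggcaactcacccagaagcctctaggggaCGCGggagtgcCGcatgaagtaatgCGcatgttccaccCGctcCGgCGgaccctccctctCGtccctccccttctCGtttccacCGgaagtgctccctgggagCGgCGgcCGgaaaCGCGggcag

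The other 3 are Cd5, an inhibitory receptor of T cells, Il2ra, the IL-2 receptor alpha chain that Treg cells display, and Irf4, a transcription factor induced by antigen receptor signals. They lie at chr19:10738975-10739224 on the minus strand, chr2:11642542-11642791 on the plus strand and chr13:30748983-30749232 on the plus strand. Cd5 and Il2ra held 3 CpG each and Irf4 held 11, and their domains were 20.2, 8.90 and 15.1 kb wide.
Cd5: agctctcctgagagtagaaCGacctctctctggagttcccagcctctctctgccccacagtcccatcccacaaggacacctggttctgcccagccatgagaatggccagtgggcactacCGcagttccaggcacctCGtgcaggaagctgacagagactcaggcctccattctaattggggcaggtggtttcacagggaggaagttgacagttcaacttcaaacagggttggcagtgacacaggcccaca
Il2ra: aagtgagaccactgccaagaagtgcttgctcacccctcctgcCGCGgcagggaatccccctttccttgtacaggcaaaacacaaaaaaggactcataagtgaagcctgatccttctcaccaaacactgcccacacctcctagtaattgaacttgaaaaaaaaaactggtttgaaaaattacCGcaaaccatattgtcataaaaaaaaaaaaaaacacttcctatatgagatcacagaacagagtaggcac
Irf4: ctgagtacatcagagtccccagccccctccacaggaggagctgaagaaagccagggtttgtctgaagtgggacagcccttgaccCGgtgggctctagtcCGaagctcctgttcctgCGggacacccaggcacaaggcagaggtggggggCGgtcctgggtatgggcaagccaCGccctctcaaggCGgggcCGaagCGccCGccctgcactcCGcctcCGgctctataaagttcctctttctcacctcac

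Counted over 300 bases (250 before and 50 after the start), 14.8% of the starts inside broad promoter domains held fewer than 5 CpG. The share was 5.44% of 8218 starts inside narrower peaks and 26.9% of all 20143 starts. At the other end, 59.5% of the starts in broad domains held 15 or more CpG, against 74.1% in narrower peaks and 48.4% of all starts. The median was 20 CpG in broad domains, 21 in narrower peaks and 6.00 where the start lay in no peak. The sets of starts share genes with several starts, and no test was made of these shares. Starts poor and rich in CpG were both found among the gene lists. Of 12 TCR signalling genes with a RefSeq start inside a domain, 6 had fewer than 5 CpG at every such start (Cd247, Cd3d, Cd3g, Cd5, Lcp2 and Ptprc). Of 7 T cell transcription factors, 6 had a start with 15 or more (Bcl6, Ikzf1, Klf13, Klf6, Lef1 and Tcf7).

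A search of the same 300 bases on both strands found the ETS core CCGGAAGT in 5.27% of the starts in broad domains, 10.6% of those in narrower peaks and 5.35% of all starts. The CCAAT box (CCAAT) was found in 28.1%, 40.0% and 37.8%. The RUNX core TGTGGTTT was found in 2.21%, 1.10% and 1.55%, from 13 starts in the broad domains. The TATA box (TATAAA) was found in 5.78%, 6.01% and 12.1%. These are matches of letters, and none of the 4 spellings contains another.

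The whole domains were less rich in CpG than their starts. Their median GC content was 50.1% and they held 19.8 CpG per kb. Promoter peaks under 5 kb held 21.3 CpG per kb at 51.6% GC, and the 641 distal peaks of 5 kb or more held 11.9 at 47.9%. The 52 domains whose starts all had fewer than 5 CpG had a median width of 7726 bp and a level of 18.3 CPM per kb. The 266 domains with a start of 15 or more CpG had 6620 bp and 17.6 CPM per kb. The 107 domains between these limits had 7509 bp and the highest level, 19.8 CPM per kb, so the level did not follow CpG in order.

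Most domains were a few kilobases past the width limit. Their quartiles lay at 5692 and 9117 bp, with a median of 6866 bp, while 121 reached 10 kb and 11 reached 20 kb. Together they covered 5.07 Mb, 4.97% of the length of all peaks. Just inside the limit lay the domains of Mtmr12 (5006 bp), Clec2i (5013 bp) and Atp2b1 (5014 bp), with 16.5, 14 and 16.5 CPM per kb. Just outside lay the peaks of Arid5b and Elf1 (4997 bp each) and Anxa6 (4995 bp), with 16.5, 20.4 and 15.3 CPM per kb.

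A single protein-coding gene had a start within reach of 540 domains, while 74 domains held 2 genes, 10 held 3 and 2 held 4. The pair with 4 were named for Socs1, the inhibitor of cytokine receptor signalling, together with Tnp2, Prm3 and Prm2, and for Igflr1, together with Lin37, Psenen and U2af1l4. The domains of Gimap1, Crip1 and Il2rg held 3 genes each and were the widest of that kind. Only 27 of the 86 domains with several genes held a divergent pair of starts within 1 kb. A gene within reach of a domain is not shown to be its source: one 19.2 kb domain, nearest to a start of the thyroglobulin gene Tg, also covered Sla, an adaptor that dampens TCR signalling and is nested within Tg.

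The 626 domains reached 706 genes, 3.23% of 21840 protein-coding genes and 5.63% of the 12550 with any promoter peak. Of these genes, 19 had more than 1 domain, and Tspan14, a tetraspanin, had 3. Fam53b had the widest domain and the fourth widest, at chr7:132783339-132814360 and chr7:132759485-132782510, separated by 828 bp. In all, 58 domains lay within 2 kb of another peak of 5 kb or more. Per 100 protein-coding genes there were 2.31 to 3.85 domains on the autosomes and 0.949 on chromosome X, where 9 domains lay.

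The domains leaned into the gene body. Among 370 domains with a single gene whose 5′ end lay inside, the reach downstream had a median of 5237 bp (quartiles 3958 and 7452) and the reach upstream a median of 1528 bp (quartiles 832 and 2525). The downstream side was the longer one in 322 of them (87.0%). Of the 540 single-gene domains, a median of 87.6% of the width lay within the gene, and 155 lay wholly inside it. In 23 cases the domain covered the gene from end to end. Mknk2, a kinase of the translation factor eIF4E, Cd2, an adhesion receptor of T cells, Cish, an inhibitor of cytokine signalling, and Junb, a subunit of AP-1, were the widest of these. Ltb, Tmsb10, Ier2, Gapdh and Rpl36, all short genes, were also covered whole. Genes with a single-gene domain had a median length of 30.2 kb, beside 21.8 kb for all genes with a promoter peak.

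**Figure D1:**
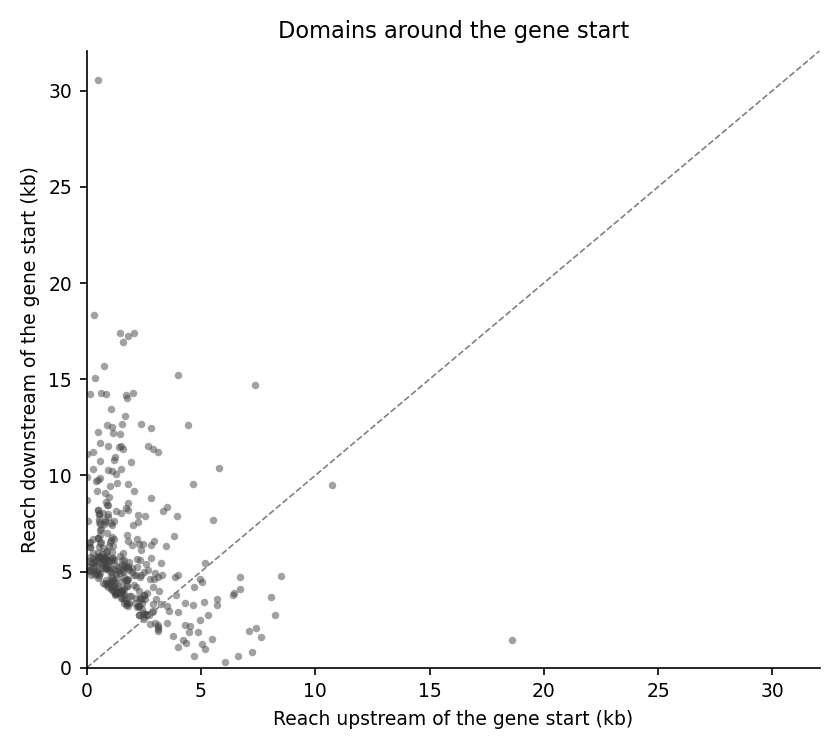
Reach of each of 370 single-gene domains upstream (horizontal axis, kb) and downstream (vertical axis, kb) of the 5′ end of its gene, 1 point per domain, with a dashed line of equal reach. Of the points, 322 lie above the line, and the empty corner at the lower left follows from the width limit of 5 kb.

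Wider promoter peaks also had more acetylation per kb. The median was 9.03 CPM per kb in promoter peaks under 1 kb, 16.3 in those of 4 to 5 kb, 17.1 from 5 to 7.5 kb and 20.4 in the domains of 10 kb or more. Over all broad promoter domains the median was 17.9 CPM per kb (quartiles 15.2 and 20.9), compared with 11.0 in narrower promoter peaks and 16.2 in the broad distal peaks. Width and level come from the same reads, and no test was made between them. All 626 domains fell in the highest 10% of tested peaks by total abundance. Within the domains, the Spearman correlation of width and level per kb was 0.24 across the 626, which are not independent replicates.

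The strongest domains per kb belonged to Hjurp, the chaperone that loads the centromeric histone CENP-A, with 42.1 CPM per kb, and to Junb with 39.3. Gpr132, a receptor of lipids and protons on lymphocytes, followed with 35.5, and the domains of Shisa5 and Cd82 had 35.3 and 35.1. The weakest were those of Cd40lg, the ligand of CD40, with 8.6 CPM per kb, Cbl, a ubiquitin ligase that restrains TCR signals, with 8.71, Grap2, an adaptor of the TCR, with 8.85, Rnf220 with 8.87 and Dock11 with 9.05.

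Many genes of T cell function held a broad domain. Of 27 TCR signalling genes, 19 (70.4%) had one, where 3.23% of all protein-coding genes did. The widest were those of Cd5 (20.2 kb), Nfatc1, the calcium-controlled transcription factor (19.5 kb), Sla (19.2 kb, shared with Tg), Cd2 (16.4 kb), Lcp2, the scaffold SLP-76 (12.6 kb), and Lck, the kinase that starts the cascade (10.1 kb). Zap70, which Lck activates, had one of 10036 bp. Of 28 cytokine signalling genes, 14 (50%) had one, and the widest were those of Cish (16.3 kb), Il4ra (10.5 kb), Il7r (10.2 kb), Socs1 (10015 bp), Ski (8.81 kb) and Il6ra (8.73 kb).

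Trafficking receptors, which guide T cells into and out of tissues, had one in 10 of 24 genes (41.7%). Gpr183 (14.3 kb), the integrin chains Itgb2 (14.2 kb) and Itgb7 (13.2 kb), and the chemokine receptors Ccr4 (14.2 kb) and Cxcr6 (9.44 kb) led the list, followed by the sphingosine phosphate receptor S1pr1 (7.35 kb). Immediate early and NF-kB genes had one in 13 of 32 (40.6%), led by Zfp36, which destabilises cytokine mRNA (17.6 kb), Dusp5 (13.5 kb), Junb (13.3 kb), Ier2 (9.53 kb), Zfp36l1 (9.01 kb) and Dusp2 (8.45 kb). Among 31 T cell transcription factors, 11 (35.5%) had one. They included Runx1 (18.9 kb), Ikzf1 (12.7 kb), Klf13 (11.2 kb), Tcf7 (11.2 kb), Ets1 (9.40 kb) and Klf6 (6.97 kb). The domains of Cxcr6 and Ets1 lay near a start of the gene but held none.

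Treg identity genes had one in 13 of 32 (40.6%). Irf4 (15.1 kb) and Gata3 (13.5 kb), transcription factors of effector Treg cells, came first, then Ikzf4 (11.8 kb), the costimulatory receptor Tnfrsf4 (10.4 kb), the folate receptor family member Izumo1r (9.51 kb) and Il2ra (8.90 kb). Foxp3, the master transcription factor of the lineage, had one of 5497 bp at chrX:7581051-7586547. It lay inside the gene, downstream of its 5′ end at position 7573644, and met the rule through later annotated starts. Il1rl1, which encodes the IL-33 receptor ST2, had 5 promoter peaks of which the widest spanned 2879 bp, and Ctla4 had 4 of which the widest spanned 3997 bp, so neither had a broad domain.

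Other lists had smaller shares than those of T cell function. Of 30 genes listed for H3K36 and H3K27 marks, 3 (10%) had a domain, the demethylases Kdm2b and Kdm6b and the deacetylase Hdac7. The list also held other methyltransferases, such as Kmt2a and Dnmt1, and the complex subunits Eed and Suz12. Cytosolic ribosomal protein genes, transcribed strongly in every cell, had one in 5 of 79 (6.33%). The markers of B cells, myeloid cells, epithelium, stroma and CD8 or NK cells had none. Of the lists of the study, the splenic Treg signature had one at 59 of 438 genes (13.5%), the colonic signature at 52 of 457 (11.4%), the ST2 signature at 11 of 187 (5.88%) and the RORγt signature at 17 of 423 (4.02%). Genes higher in KO mRNA of adult large intestinal Treg cells had one at 97 of 711 (13.6%) and genes lower in KO mRNA at 35 of 558 (6.27%). These lists differ in how strongly their genes are transcribed, which was not matched, and the shares were not tested.

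**Figure D2:**
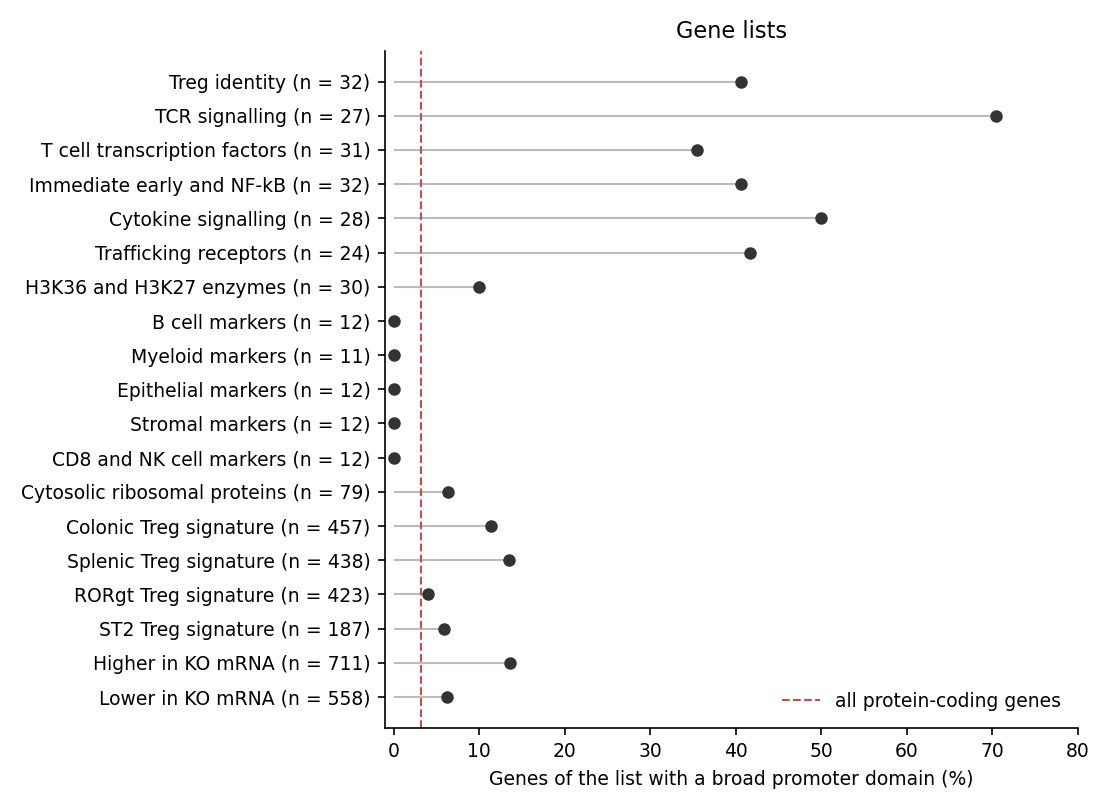
Share of the genes of each list with a broad promoter domain (horizontal axis, percent), with the number of genes matched to the annotation in parentheses and a dashed line at 3.23% for all protein-coding genes. The 6 lists of T cell function lie between 35.5% and 70.4%, and the 5 marker lists of other cells, of 11 or 12 genes each, lie at 0.

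To ask whether loss of Setd2 changed the domains, KO was compared with Ctrl in edgeR, with genotype as the only term, over all 74550 tested peaks. In that fit no domain passed an adjusted p of 0.05 (Benjamini-Hochberg over all tested peaks), whether higher or lower in KO, and the smallest adjusted p of a domain was 0.998. DESeq2 also called 0. Among all tested peaks, 0.00134% were higher and 0% were lower at that threshold. At an unadjusted p under 0.05, 49 domains (7.83%) were higher in KO, where 1.45% of all tested peaks were, and 1 domain (0.160%) was lower, where 2.79% of all tested peaks were. DESeq2 gave 29 and 1. The share of all tested peaks was counted in the edgeR fit above alone. The counts of DESeq2 and of the fits that follow therefore have no such share beside them. With a loess offset on abundance the counts were 2 higher and 10 lower, and with 1 library left out the higher count ran from 1 (without Ctrl replicate 1 or KO replicate 2) to 125 (without KO replicate 1). The genotypes did not overlap in 210 domains higher in KO (33.5%, against 16.9% of all tested peaks) and in 13 lower (2.08%, against 16.4%).

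Selected on their width in the same libraries, the domains lay to one side as a class. Their median log2 fold change (KO over Ctrl) was 0.25, with quartiles of 0.11 and 0.38 and a median SE of 0.27 for a single domain, and 543 of 626 (86.7%) were above 0. Over all tested peaks the median was −0.01 and 49.2% were above 0. Broad distal peaks had a median of 0.26 with 90.8% above 0, and promoter peaks under 5 kb a median of 0.05 with 54.7% above 0. Among the highest 10% of tested peaks by abundance, 7455 peaks that include all 626 domains, the median was 0.16 with 74.3% above 0. No test was made of the class. With a loess offset on abundance the median was 0.01 and 50.3% of the domains were above 0. This offset takes out each library's trend with abundance. Since all 626 domains are among the most abundant peaks, values near 0 follow largely from the method. Without KO replicate 2 the median was 0.04 and 56.1% were above 0.

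The values of single libraries moved with this lean. Of the 626 domains, 461 were highest in KO 2 and 380 were lowest in Ctrl 1, the libraries with the largest and the smallest totals. Between KO 1 and Ctrl 2 the median log2 difference was close to 0 and 49.5% of domains were higher in KO 1. Between KO 1 and Ctrl 1 the median was 0.17, with 76.2% of domains higher in KO 1. Between KO 2 and Ctrl 2 it was 0.31 (90.6% higher in KO 2), and between KO 2 and Ctrl 1 it was 0.51 (83.9%). The part of depth and of the library in the lean was not tested.

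KO 2 and Ctrl 1 deviated more in wider peaks. In promoter peaks under 1 kb the median deviation from the mean of the libraries was 0.011 for KO 2 and 0.072 for Ctrl 1 on the log2 scale. It was 0.267 and −0.186 in domains of 5 to 7.5 kb and 0.381 and −0.292 in those of 10 kb or more. Ctrl 2 and KO 1 stayed near 0 in all domains, at −0.040 and −0.027 in the widest. The median log2 fold change accordingly went from 0.009 in promoter peaks under 1 kb to 0.351 in domains of 10 kb or more.

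**Figure D3:**
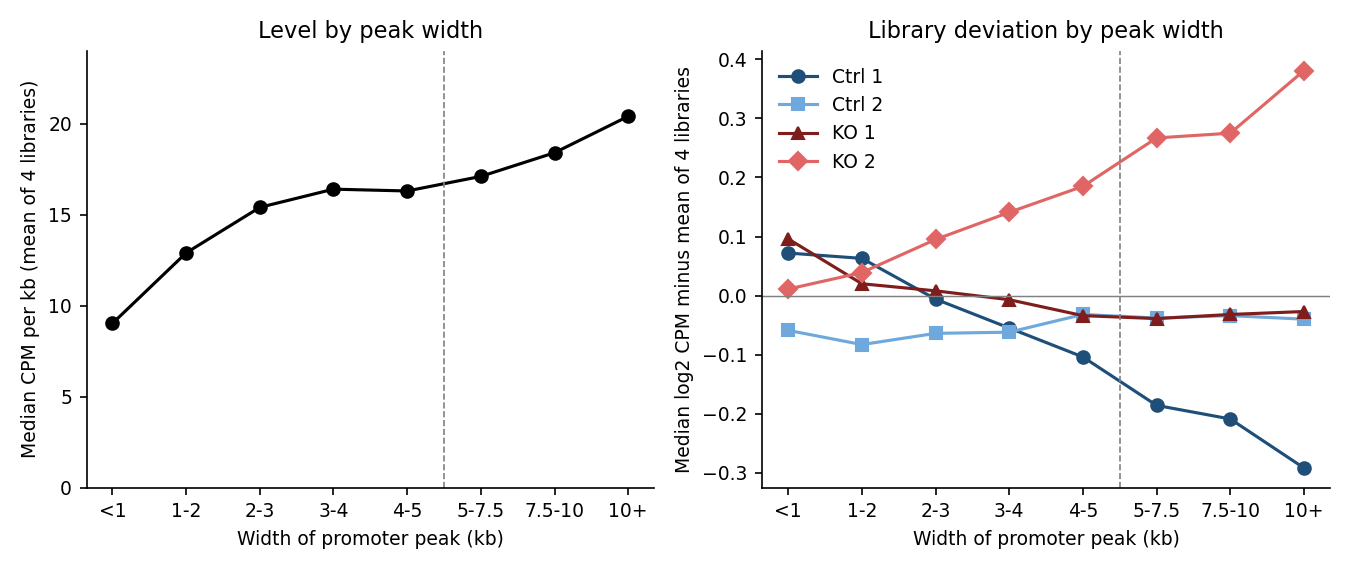
Promoter peaks by width class (horizontal axis, kb), with the median CPM per kb on the left and, on the right, the median log2 CPM of each library relative to the mean of the 4 libraries, and a dashed line at the 5 kb limit. KO 2 climbs from 0.011 to 0.381 and Ctrl 1 falls from 0.072 to −0.292 across the width classes, while Ctrl 2 and KO 1 lie close together from 4 kb on.

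The share of all counts that fell in broad promoter domains was 7.47% (Ctrl 1), 8.56% (Ctrl 2), 8.21% (KO 1) and 10.3% (KO 2). KO 1 lay between the Ctrl libraries and only KO 2 lay above both, and the order was that of the library totals. KO had a mean of 9.25% ± 1.48 and Ctrl one of 8.01% ± 0.77 (n = 2 per genotype, SD), a difference of 1.24 percentage points (two-sided exact permutation test, p = 0.667, where 0.33 is the smallest p that 2 against 2 libraries allow). The exact 95% Clopper-Pearson interval of the share in Ctrl 1, the shallowest library, ran from 7.43% to 7.5% and covers counting error only.

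The domains were next set against other peaks of the same library. The log2 ratio of their counts to those of narrower promoter peaks was −2.06 and −1.75 in Ctrl and −1.86 and −1.57 in KO. The groups overlapped, and the difference was 0.19 (two-sided exact permutation test, p = 0.667). The log2 ratio to the counts of broad distal peaks was 0.21 and 0.24 in Ctrl and 0.16 and 0.23 in KO. This ratio differed by −0.03 (two-sided exact permutation test, p = 0.667), and KO 2 lay between the Ctrl libraries.

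**Figure D4:**
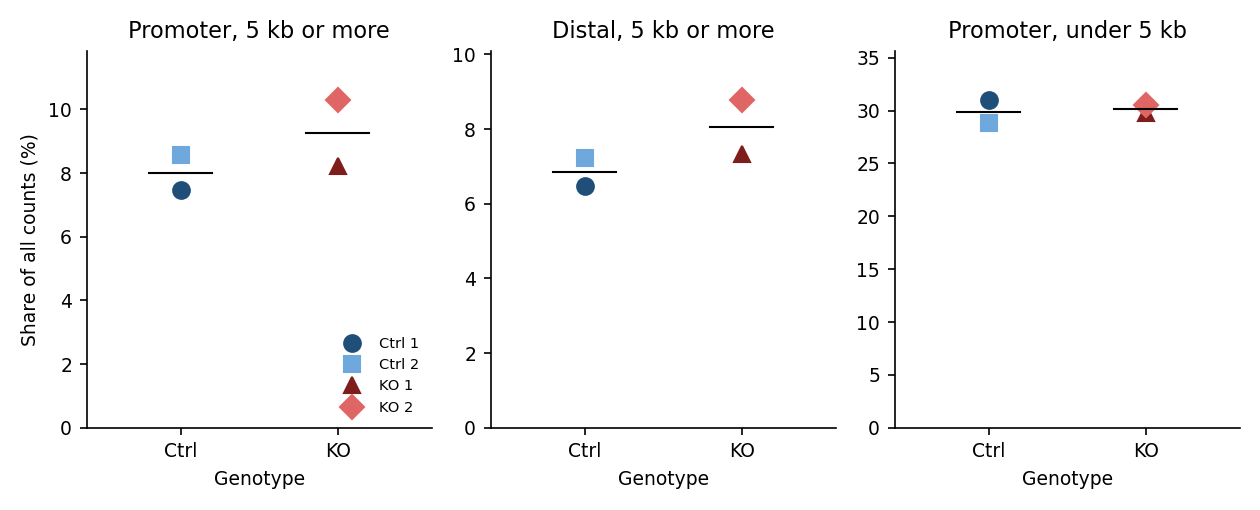
Share of all counts (vertical axis, percent) in promoter peaks of 5 kb or more, distal peaks of 5 kb or more and promoter peaks under 5 kb, 1 point per library with a bar at the mean of each genotype. In both broad classes KO 2 is highest and Ctrl 1 lowest, and KO 1 lies between or near the Ctrl libraries.

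Among the widest domains, that of Fam53b (31.0 kb) measured 523 and 611 CPM in Ctrl and 561 and 804 CPM in KO, a log2 fold change of 0.27 (SE 0.23). The genotypes overlapped there. The domain of Stk10, a kinase of lymphocytes that acts on the cell cortex (27.3 kb, chr11:32532113-32559399), measured 427 and 573 CPM in Ctrl and 530 and 820 CPM in KO (log2 fold change 0.43, SE 0.23). That of Sept9, a septin of the cytoskeleton (26.7 kb, chr11:117315952-117342695), measured 365 and 663 CPM in Ctrl and 534 and 887 CPM in KO (log2 fold change 0.47, SE 0.23). In both, KO 1 lay between the Ctrl libraries and KO 2 above them, and without KO replicate 2 the log2 fold change was 0.05 at Stk10 and 0.02 at Sept9.

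The second domain of Fam53b (23.0 kb) measured 329 and 395 CPM in Ctrl and 465 and 524 CPM in KO (log2 fold change 0.45, SE 0.24), without overlap. Mknk2 (22.1 kb) measured 277 and 353 CPM in Ctrl and 363 and 558 CPM in KO (log2 fold change 0.55, SE 0.24). Lrrfip1, a nucleic acid binding protein (20.7 kb), measured 453 and 454 CPM in Ctrl and 481 and 564 CPM in KO (log2 fold change 0.21, SE 0.23). In these 3 the lower KO library lay above the higher Ctrl library, by a wide margin only in the second domain of Fam53b.

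Fam107b (20.3 kb) measured 377 and 457 CPM in Ctrl and 481 and 553 CPM in KO (log2 fold change 0.31, SE 0.23). Cd5 (20.2 kb) measured 311 and 497 CPM in Ctrl and 414 and 650 CPM in KO (log2 fold change 0.40, SE 0.23), and its genotypes overlapped. Cd82, a tetraspanin of the cell surface (20.2 kb), measured 573 and 642 CPM in Ctrl and 692 and 926 CPM in KO (log2 fold change 0.41, SE 0.22). Lcp1, the actin bundling protein L-plastin, differs from the others in that its domain (20.1 kb) was as high in KO 1 as in KO 2, with 427 and 392 CPM in Ctrl and 493 and 483 CPM in KO (log2 fold change 0.25, SE 0.23). Each of these 10 widest domains had an edgeR adjusted p of 0.998.

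The 5 domains higher in KO with the smallest p were those of Rac2, Coro1a, Mob3a, Arhgap45 and Shisa5. Rac2, a small GTPase of blood cells (chr15:78560522-78573257), measured 147 and 253 CPM in Ctrl and 244 and 440 CPM in KO (log2 fold change 0.77, SE 0.25). Coro1a, which remodels actin in T cells (chr7:126700006-126706355), measured 85.5 and 140 CPM in Ctrl and 147 and 227 CPM in KO (log2 fold change 0.73, SE 0.26). Arhgap45, a GTPase activating protein (chr10:80014986-80029738), measured 185 and 268 CPM in Ctrl and 259 and 446 CPM in KO (log2 fold change 0.64, SE 0.25). KO 1 lay close to Ctrl 2 in each, below it for Rac2 and Arhgap45 and above it for Coro1a. The other 2 were Mob3a (log2 fold change 0.66, SE 0.24), a member of the MOB family, whose domain on chromosome 10 lay 3861 bp from that of Mknk2, and Shisa5 (0.58, SE 0.23). Mob3a measured 226 and 315 CPM in Ctrl and 344 and 510 CPM in KO, and Shisa5 measured 303 and 421 CPM in Ctrl and 461 and 624 CPM in KO, without overlap in either. The adjusted p of all 5 was 0.998 (edgeR, over all tested peaks). Without KO replicate 2 the log2 fold change was 0.25 at Rac2, 0.34 at Coro1a, 0.16 at Arhgap45 and 0.31 at both Mob3a and Shisa5.

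Of the 5 domains lower in KO with the smallest p, that of Hjurp (chr1:88272637-88279610) was the single one below an unadjusted p of 0.05. It measured 437 and 275 CPM in Ctrl and 271 and 193 CPM in KO, a log2 fold change of −0.62 with an SE of 0.25 (adjusted p = 0.998 in edgeR). KO 1 and Ctrl 2 were nearly equal, while Ctrl 1 was highest and KO 2 lowest. Without Ctrl replicate 1 the value was −0.25. Dnajc3, a co-chaperone of the endoplasmic reticulum, measured 68.8 and 77.1 CPM in Ctrl and 45.5 and 52.5 CPM in KO (log2 fold change −0.57, SE 0.30), without overlap. The other 3 were Hdac7 (−0.44, SE 0.30), the ribosomal protein gene Rpl36 (−0.40, SE 0.29) and the calcium pump Atp2b1 (−0.38, SE 0.28). Hdac7 measured 45.7 and 74.1 CPM in Ctrl and 28.7 and 59.2 CPM in KO, and its genotypes overlapped. Rpl36 measured 69.7 and 94.6 CPM in Ctrl and 52.2 and 72.4 CPM in KO, with overlap, and Atp2b1 measured 103 and 84.8 CPM in Ctrl and 62.2 and 81.2 CPM in KO, without.

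**Figure D5:**
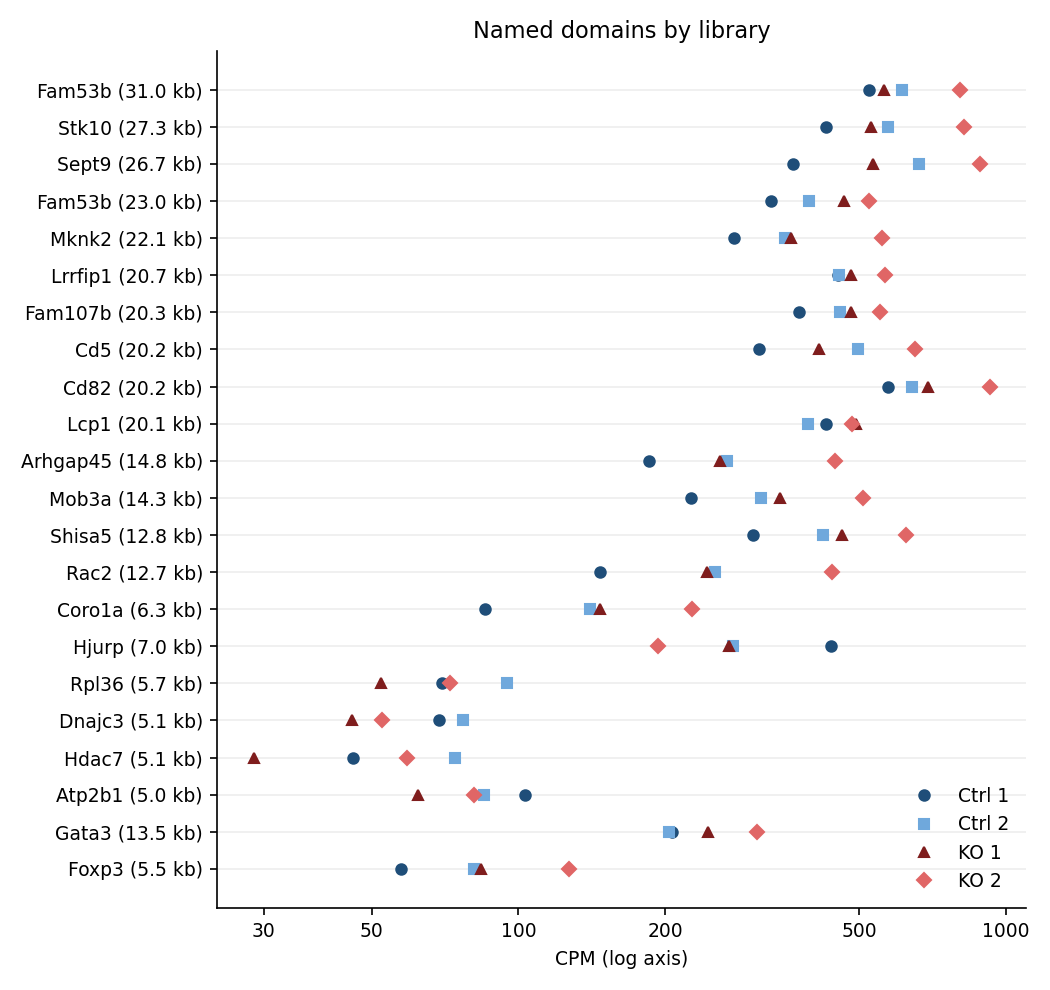
CPM (horizontal log axis) in each of the 4 libraries at the 10 widest domains, the 5 higher and 5 lower in KO with the smallest p, and the domains of Gata3 and Foxp3, with the width in parentheses. KO 2 is rightmost in most rows and Ctrl 1 leftmost, and at Hjurp Ctrl 1 is rightmost and KO 2 leftmost.

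Among the domains of Treg identity genes, 12 of 13 had a log2 fold change above 0, with a median of 0.43, beside 0.25 over all broad promoter domains. The domain inside Foxp3 measured 57.5 and 81.2 CPM in Ctrl and 83.8 and 127 CPM in KO. Its log2 fold change was 0.60 with an SE of 0.28 (adjusted p = 0.998 in edgeR). The narrower promoter peaks of Foxp3 differed, with −0.18 (SE 0.59) at chrX:7575974-7576755 and 0.13 (SE 0.37) at chrX:7577942-7580859. At chrX:7586754-7588302 the value was 0.76 (SE 0.44). Gata3 measured 207 and 204 CPM in Ctrl and 245 and 309 CPM in KO, a log2 fold change of 0.43 with an SE of 0.25 (adjusted p = 0.998 in edgeR). In both domains, the KO libraries lay above the Ctrl libraries, for Foxp3 by a small margin between Ctrl 2 and KO 1. Irf4 measured 207 and 168 CPM in Ctrl and 268 and 244 CPM in KO, and Tnfrsf4 measured 238 and 249 CPM in Ctrl and 311 and 375 CPM in KO. Il2ra differed little among 3 libraries, with 114 and 114 CPM in Ctrl and 116 CPM in KO 1, against 149 CPM in KO 2. Of these 13 domains, 8 were higher in KO without overlap, beside 33.5% of all broad promoter domains and 16.9% of all tested peaks. Of the 13, 4 were higher at an unadjusted p under 0.05 in edgeR and 0 lower, beside 7.83% and 1.45% higher.

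The 20 domains of TCR signalling genes had a median of 0.35, with 19 above 0 where 86.7% of all broad promoter domains were. Of the 20, 2 were higher at an unadjusted p under 0.05 in edgeR, beside 7.83% of all broad promoter domains and 1.45% of all tested peaks. Without overlap, 10 of the 20 were higher in KO, beside 33.5% of all broad promoter domains and 16.9% of all tested peaks. Among them, Cd28, the costimulatory receptor, measured 70.1 and 86.6 CPM in Ctrl and 103 and 123 CPM in KO. Zap70 measured 162 and 223 CPM in Ctrl and 231 and 300 CPM in KO. The genotypes overlapped at Cd5, Nfatc1 and Lcp2. T cell transcription factors had a median of 0.23 over 11 domains (10 above 0), cytokine signalling genes 0.23 over 14 (10 above 0), trafficking receptors 0.21 over 10 (9 above 0) and immediate early and NF-kB genes 0.17 over 13 (11 above 0).

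Single genes of these lists differed. Cxcr6, a chemokine receptor of tissue T cells, measured 101 and 89.9 CPM in Ctrl and 141 and 163 CPM in KO. S1pr1, which guides exit from lymphoid tissue, measured 172 and 125 CPM in Ctrl and 143 and 141 CPM in KO, and Il7r measured 165 and 151 CPM in Ctrl and 161 and 142 CPM in KO. The genotypes thus stood apart at Cxcr6 and overlapped at S1pr1 and Il7r. Kdm6b, a demethylase of H3K27, measured 95 and 157 CPM in Ctrl and 168 and 217 CPM in KO.

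For domains of genes with higher mRNA in KO, the median log2 fold change was 0.31, with 89 of 97 above 0 and 16 at an unadjusted p under 0.05, all higher. Those of genes lower in KO mRNA had a median of 0.21, with 27 of 36 above 0, and 0 higher and 1 lower at that threshold. Over all broad promoter domains 7.83% were higher and 0.160% lower at it, and over all tested peaks 1.45% and 2.79%. The study had chosen both lists from adult cells of the same genotypes, so they are not independent of the comparison. The splenic signature had a median of 0.32 (57 of 61 above 0), the colonic signature 0.20 (39 of 52), the ST2 signature 0.23 (10 of 11) and the RORγt signature 0.12 (12 of 16). The domains of cytosolic ribosomal protein genes had a median of 0.24 over 4. In every list named here the median was above 0, as it was for the class as a whole, and no domain of any list passed the adjusted threshold in edgeR with genotype alone.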

How the data were processed

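H3K27ac CUT&Tag was measured in 4 libraries of large intestinal Treg cells, 2 Ctrl and 2 KO. An IgG library of the series was not used here. The authors aligned reads with Bowtie2 to mm10, called peaks with MACS2, merged the peak sets with bedtools and deposited raw counts per merged peak without normalization. The tool versions are not given in the sources used here. Every count column was matched to a sample by its label.

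Peaks were placed on TSSs of protein-coding transcripts of GENCODE M21 basic, and a domain was named for the gene whose TSS was nearest its midpoint. The 74550 peaks that reached 10 counts in 2 or more libraries entered a quasi-likelihood fit (edgeR 4.0.16, R 4.3.3) with TMM, genotype alone and Benjamini-Hochberg adjustment over all of them. With 2 residual degrees of freedom per peak, the prior degrees of freedom were estimated as infinite, so a peak's own spread did not enter. CPM used the TMM library sizes, and the SE was derived from the fold change and the F statistic. DESeq2 1.42.0 and the alternatives listed at the end were run as checks, and the code was tested on simulated data. Per-library values were compared by exact permutation in scipy 1.17.1. Only pooled mice stand behind each library, so any spread between libraries is one between pools, not single mice. The edgeR p-values and SEs rest on a spread shared over peaks, not on that of the pools at the domain itself.

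Named domains were the 10 widest, the 5 strongest and 5 weakest per kb, the 5 with most genes, the 5 higher and 5 lower with the smallest p, those nearest the width limit, any domain past the adjusted threshold in any fit (58 with the replicate block, of which those named by the other parts of the rule are given and the rest counted), up to 6 widest per gene list, and Setd2, Foxp3, Il1rl1 and Gata3. Cd28, Zap70, Ctla4, Tspan14 and the genes named for CpG content or for lying wholly within a domain were added after their values were seen. The members, the rule and the gene lists were chosen with earlier results of these data known. Of the RORγt and ST2 signatures the first 500 and 200 entries were used, as in the methods of the study, and names alone were taken.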

Additional observations from a re-analysis of the deposited data

How the results depend on the processing

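The count of domains past an adjusted p of 0.05 was 0 in the edgeR analysis reported and under every alternative but one. With the replicate number as a block it was 57 higher and 1 lower in KO, beside 211 of all 74550 tested peaks, 152 of them higher. The labels do not say that a number marks a shared litter or day, and with 2 pairs the numbers cannot be shown to pair the libraries. Same-numbered libraries deviated together, with a correlation of 0.25 over all tested peaks and 0.78 over the domains. In both genotypes library 2 was also the deeper one, so a shared number and depth cannot be told apart here. With the block, Rac2 (0.77), Mob3a (0.65), Shisa5 (0.59), Arhgap45 (0.62), Coro1a (0.73) and Hjurp (−0.60) were among the calls, as were the widest domains other than those of Fam53b at 31.0 kb, Lrrfip1, Fam107b and Lcp1. At an unadjusted p under 0.05 the block gave 273 higher and 6 lower, and the same count over all tested peaks was not made. For the share of counts and both ratios the difference within numbers equalled the one reported, with an exact p of 0.5.

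Counts at an unadjusted p under 0.05, 49 higher and 1 lower in edgeR, moved most. Higher domains numbered 29 with DESeq2, 22 with total counts as library size, 2 with a loess offset on abundance, 19 with no count minimum, 5 with at least 50 counts in 2 libraries and 17 of 121 at 10 kb. They ranged from 1 to 125 when 1 library was left out (1 without Ctrl replicate 1 or KO replicate 2, 8 without Ctrl replicate 2, 125 without KO replicate 1). Lower domains numbered 2 with total counts, 10 with the loess offset, 0 with no minimum, 2 with at least 50 counts and 0 at 10 kb. The same counts over all tested peaks were not made in these alternative fits, and why the counts moved was not tested.

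The median log2 fold change of 0.25 became 0.01 and the share above 0 became 50.3% with the loess offset on abundance. That offset removes a lean shared by abundant peaks by design, so these values are no check on the lean. With 1 library left out, the median ranged from 0.04 to 0.38 and the share above 0 from 56.1% to 86.1%. The log2 ratio to broad distal peaks ranged from −0.06 to 0.01, positive only without KO replicate 1. The difference in share ranged from 0.19 to 2.29 percentage points and the ratio to narrower promoter peaks from 0.04 to 0.34. A width of 4 kb gave 1038 domains at 1155 genes and one of 10 kb gave 121 at 137. With the loess offset the values of Fam53b at 31.0 kb (−0.14), Lrrfip1 (−0.17), Fam107b (−0.05), Cd82 (−0.01) and Lcp1 (−0.10) turned negative. With 1 library left out, Fam53b at 31.0 kb ranged from −0.05 to 0.49 and Cd5 from −0.0010 to 0.78. A width of 10 kb lowered the share of TCR signalling genes to 25.9% and of Treg identity genes to 12.5%. With a start required inside the peak, 561 domains remained. The shares were then 66.7% for TCR signalling, 42.9% for cytokine signalling and 37.5% for immediate early and NF-kB genes. They were 34.4% for Treg identity, 33.3% for trafficking receptors and 25.8% for T cell transcription factors. The comprehensive annotation (681 domains) and a loess offset on GC content (median 0.26) were added after the data were seen.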
